A study of Mus musculus with 6 samples.

Results

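Sox6 binding regions that lie inside introns and close to RNA polymerase II (Pol II) were examined in cultured mouse myotubes. Of 1066 Sox6 peaks shared by both Sox6 experiments, 551 had their centre in an intron, and 292 of these (53.0%) had it within 10 kb of a Pol II peak called in at least 1 of the Pol II experiments. These 292 regions, 27.4% of all common Sox6 peaks, lie in 241 host genes on 20 chromosomes and have a median width of 160 bp. An intron was taken from the longest gene model with a RefSeq transcript, and for 283 of the regions the centre was outside the exons of every such model that spans it. The regions were thus selected on measured values, the Sox6 peak calls and the distance to a Pol II peak, so the amounts of Sox6 and Pol II at them describe the selection, and the calls against input given below for them are descriptions too.

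The libraries come from chromatin of wild type C57BL/6 mouse primary fetal (E18.5) limb myoblasts at passage 17, differentiated for 48 h into myotubes. Sox6 ChIP, Pol II ChIP and Input DNA (chromatin before immunoprecipitation) were each sequenced in 2 libraries, and the groups do not differ in genotype, treatment or time. The Sox6 antibody was a rabbit polyclonal, and the Pol II antibody 4H8 recognizes the repeat of the carboxy-terminal domain of the enzyme. The Sox6 libraries hold 2985437 and 1468604 mapped reads, the Pol II libraries 1538757 and 2762155, and the inputs 21973495 and 24249850. The labels do not say whether the libraries of a group come from separate animals, so errors describe variation between these libraries only. The SE given with a ratio comes from a limma fit, which moderates the variance of each region with that of all common peaks. It is thus not the spread of the libraries at that region alone. Fewer bound nuclei and less binding per nucleus cannot be told apart in a whole culture. As a check of the label, Pol II reads over each gene (RPKM, the count scaled to library size and gene length) were over 2 times input in both libraries for 9 of 9 muscle genes, among them Myog at 53.6 and 59.1 against 0.823 and 0.567 in input, and for Pax7 and Myf5 of undifferentiated myoblasts. None of 5 fibroblast, 2 cartilage, 2 erythroid and 2 neuronal genes reached 2 times input in both libraries, and of 2 cardiac genes Nppa did, at 7.14 and 6.90 times input, and Myl7 did not.

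Sox6 is a transcription factor of the SoxD group that binds DNA through an HMG box and has no activation or repression domain of its own, so that its partners on the DNA set its effect. In fetal skeletal muscle it is known as a repressor of slow fiber genes. Pol II transcribes protein-coding genes, and in ChIP-seq it is found at promoters, along the bodies of transcribed genes and at enhancers. The sarcomere is the contractile unit of the myotube, and E-boxes are the sites of the myogenic basic helix-loop-helix factors such as MyoD and myogenin.

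Several of the regions are shown here to give the sequence behind the values that follow, each in the + strand of NCBI Build 37 (mm9), 5′ to 3′, over the whole deposited interval. Capitals mark the Sox words (ACAAAG or ACAATG, or CTTTGT or CATTGT when read on the other strand) and the E-box words (CAGCTG or CAGGTG, or CACCTG on the other strand). The first set lies in slow troponin genes and in Lmod2, where Sox words occur with or without E-boxes.
Tnnc1 (chr14:32022542-32022661): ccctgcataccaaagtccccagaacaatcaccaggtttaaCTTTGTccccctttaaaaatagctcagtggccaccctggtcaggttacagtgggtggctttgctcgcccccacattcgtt
Tnni1 (1) (chr1:137691462-137691681): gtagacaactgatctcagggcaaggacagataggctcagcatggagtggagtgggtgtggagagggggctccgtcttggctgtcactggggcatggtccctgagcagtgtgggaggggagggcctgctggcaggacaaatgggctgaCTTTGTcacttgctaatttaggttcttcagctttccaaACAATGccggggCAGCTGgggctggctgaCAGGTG
Tnni1 (2) (chr1:137695162-137695321): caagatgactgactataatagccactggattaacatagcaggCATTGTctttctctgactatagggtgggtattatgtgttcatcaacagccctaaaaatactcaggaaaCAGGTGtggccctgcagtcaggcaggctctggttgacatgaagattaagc
Tnnt1 (chr7:4466142-4466301): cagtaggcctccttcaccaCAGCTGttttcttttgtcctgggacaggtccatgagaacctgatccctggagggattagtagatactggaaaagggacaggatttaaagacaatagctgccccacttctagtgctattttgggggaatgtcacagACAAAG
Lmod2 (chr6:24549902-24550061): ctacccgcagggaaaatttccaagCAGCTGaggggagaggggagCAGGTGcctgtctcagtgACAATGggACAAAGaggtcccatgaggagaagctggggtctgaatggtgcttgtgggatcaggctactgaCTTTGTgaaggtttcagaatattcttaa
The second set lies in genes of transcription factors that act in muscle, and holds both kinds of word in 1 interval.
Tead4 (chr6:128200702-128200841): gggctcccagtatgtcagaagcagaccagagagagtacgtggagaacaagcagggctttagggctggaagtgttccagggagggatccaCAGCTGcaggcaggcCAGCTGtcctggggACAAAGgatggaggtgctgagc
Nfatc3 (chr8:108636322-108636581): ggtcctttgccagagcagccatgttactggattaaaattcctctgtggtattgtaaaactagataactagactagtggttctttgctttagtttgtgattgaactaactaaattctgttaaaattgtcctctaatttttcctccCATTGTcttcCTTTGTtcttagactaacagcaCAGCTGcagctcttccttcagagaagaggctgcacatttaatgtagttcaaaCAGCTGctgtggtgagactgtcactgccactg
The third set holds intronic regions with some of the highest Sox6 ratios to input, each with a Pol II peak at its centre.
Bicd2 (chr13:49457862-49457981): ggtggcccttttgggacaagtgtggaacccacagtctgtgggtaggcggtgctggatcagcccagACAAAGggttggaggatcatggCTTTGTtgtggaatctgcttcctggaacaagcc
Ncam1 (chr9:49462862-49463001): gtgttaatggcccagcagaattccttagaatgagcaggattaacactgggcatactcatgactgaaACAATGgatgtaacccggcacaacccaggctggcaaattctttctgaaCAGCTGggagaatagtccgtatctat
Macf1 (chr4:123301862-123302001): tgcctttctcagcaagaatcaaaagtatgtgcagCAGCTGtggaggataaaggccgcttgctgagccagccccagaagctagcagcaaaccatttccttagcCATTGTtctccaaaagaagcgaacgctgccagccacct
In the last set the deposited interval holds neither kind of word. Sox6 and Pol II were high there in the 450 bp around the centre, which is wider than the interval searched.
Actn2 (chr13:12430202-12430301): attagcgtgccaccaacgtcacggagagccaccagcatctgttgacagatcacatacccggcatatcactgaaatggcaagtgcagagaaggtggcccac
Myl4 (chr11:104437982-104438181): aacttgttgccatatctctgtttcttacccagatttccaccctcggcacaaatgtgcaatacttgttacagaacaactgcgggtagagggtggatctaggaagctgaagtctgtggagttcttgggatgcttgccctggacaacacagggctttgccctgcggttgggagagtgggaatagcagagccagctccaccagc

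The distances to the nearest Pol II peak, which the selection used, were mostly well under the 10 kb allowed. The centre of 144 of the 292 regions (49.3%) fell inside a Pol II peak, 178 were within 100 bp of one and 242 within 1 kb. The other 50 were between 1 and 10 kb away. At the centre, 52 regions fell inside a Pol II peak of both replicates, 75 of replicate 2 only and 17 of replicate 1 only, where replicate 1 has fewer reads and a shorter list of peaks (11299 against 17488). Pol II peaks had median widths of 181 and 241 bp and reached 16101 and 27921 bp. The 2 regions nearest to the limit were in Brd7, which encodes a bromodomain protein, at 9.39 kb, and in Ndufa9, which encodes a subunit of respiratory complex I, at 9.25 kb. The 2 intronic peaks just outside were in Svil (supervillin), at 10000.5 bp, and in Rhobtb1, at 10.1 kb. Pol II in the 450 bp around the centre was 3.90 and 1.81 RPM (reads per 1000000 mapped reads) at Brd7 and 0.650 and 1.45 at Ndufa9, against 1.95 and 0.724 at Svil and 1.95 and 2.53 at Rhobtb1.

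**Figure D1:**
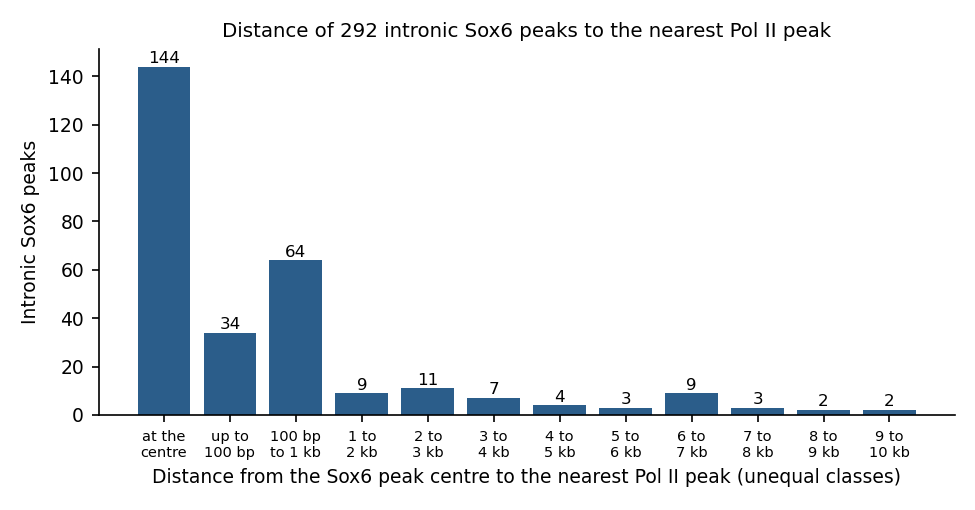
Number of the 292 intronic Sox6 peaks (y axis) in each class of distance from the peak centre to the nearest Pol II peak of either replicate (x axis, classes of unequal width). The first bar holds 144 regions whose centre lies inside a Pol II peak, and each class beyond 1 kb holds at most 11.

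The nearest Pol II peak was mostly inside the longest model of the host gene and not at the start of that model. The nearest Pol II peak lay within the longest model of the host gene for 279 of 292 regions (95.5%), within 1 kb of that model's start for 10 and outside the gene for 3. Taking every annotated start of any gene, the nearest Pol II peak was within 1 kb of one for 42 regions (14.4%), whereas 26.8% and 25.7% of all Pol II peaks of replicates 1 and 2 were. For 106 regions (36.3%) no annotated start of the host gene had a Pol II peak within 1 kb, against 217 of the 259 intronic Sox6 peaks farther from Pol II (83.8%). These shares use the Pol II peaks that made the division, and the choice of intronic centres favours a nearest peak inside the gene. They are descriptions.

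The median distance from the region to the nearest start of its host gene was 14.0 kb, with quartiles of 3.79 and 39.1 kb, against 22.3 kb (8 and 59.6 kb) for the intronic peaks farther from Pol II. A start of any gene was within 1 kb of 24 regions (8.22%) and over 10 kb away for 165 (56.5%). The first intron held 106 regions (36.3%), and of the farther intronic peaks 70 of 259 (27%). The GC content of the intervals was 48.6% at the median against 46.4%. None of these differences was tested.

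Sox6 reads made a narrow peak and Pol II reads a broad one. In the 450 bp around the centre the median region held 4.69 and 6.13 RPM of Sox6, 3.25 and 3.26 RPM of Pol II and 0.501 and 0.577 RPM of input, which are 14 and 9, 5 and 9, and 11 and 14 reads. In windows of the same size 2 kb to either side, Sox6 was at 0.335 and 0.341 RPM, next to inputs of 0.364 and 0.371, while Pol II was at 1.30 and 1.27. At the intronic peaks farther from Pol II, the windows 2 kb away held 0.325 and 0.362 RPM of Pol II, next to inputs of 0.296 and 0.309, and the centre held 1.30 and 1.09 RPM, next to 0.455 and 0.495. At the median, both sets of intronic peaks had more Pol II than input at the centre, and the flanks of the farther peaks were close to input.

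**Figure D2:**
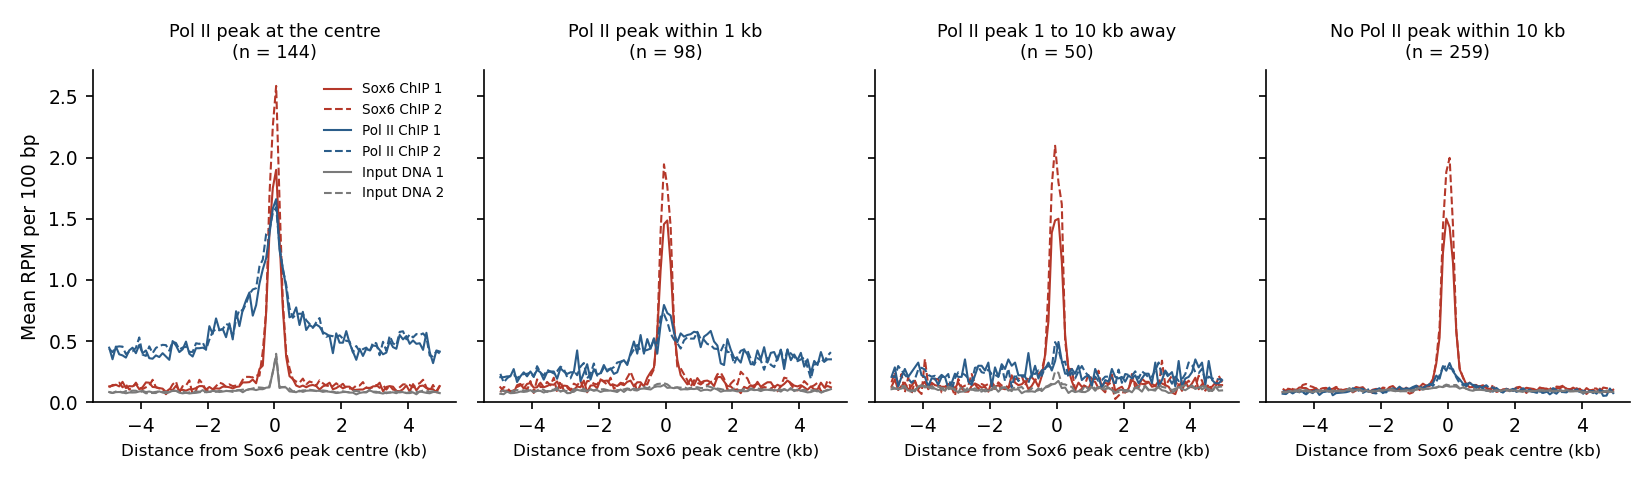
Mean RPM per 100 bp (y axis) against the distance from the Sox6 peak centre (x axis, kb) in each of the 6 libraries, for the 292 regions in 3 classes of distance to a Pol II peak and for the 259 intronic Sox6 peaks with none within 10 kb. Sox6 (red) is narrow in every panel, Pol II (blue) is high and broad in the first, and the input (grey) at the centre of the first panel includes the Cdk5rap2 region, which has over 50 RPM of input.

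All counts of calls come from limma with Benjamini-Hochberg adjustment at 0.05 over the 1066 common peaks. Sox6 was called above input at 289 of 292 regions, where 96.8% of all common peaks were, and below input at 0. Pol II was called above input at 254 (87.0%), where 57.2% of all common peaks were, and below input at 2, where 1.41% were. Among the farther intronic peaks, 255 of 259 were called for Sox6 and 102 (39.4%) for Pol II. Since peaks of both kinds chose the regions, nothing is read from these counts. With either Input DNA library left out, which leaves 1 library in that group, fewer regions were called for Pol II. The median log2 ratio of Pol II over the regions was then 2.60 and 2.70, beside 2.65. The 57.2% comes from the fit with all libraries, and the share of all common peaks without an input library is not given here. Both comparisons use the same 2 input libraries.

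The median log2 ratio to input over the 292 regions was 3.42 for Sox6 and 2.65 for Pol II, beside 3.52 and 1.79 over all common peaks. By distance class the median for Pol II was 3.12 for regions inside a Pol II peak, 2.34 for those within 1 kb, 1.51 for those between 1 and 10 kb and 1.33 for the farther intronic peaks. For Sox6 the medians of the same classes were 3.42, 3.38, 3.39 and 3.57. The medians for Sox6 lay within a narrow range, while those for Pol II followed the distance that defines the classes.

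**Figure D3:**
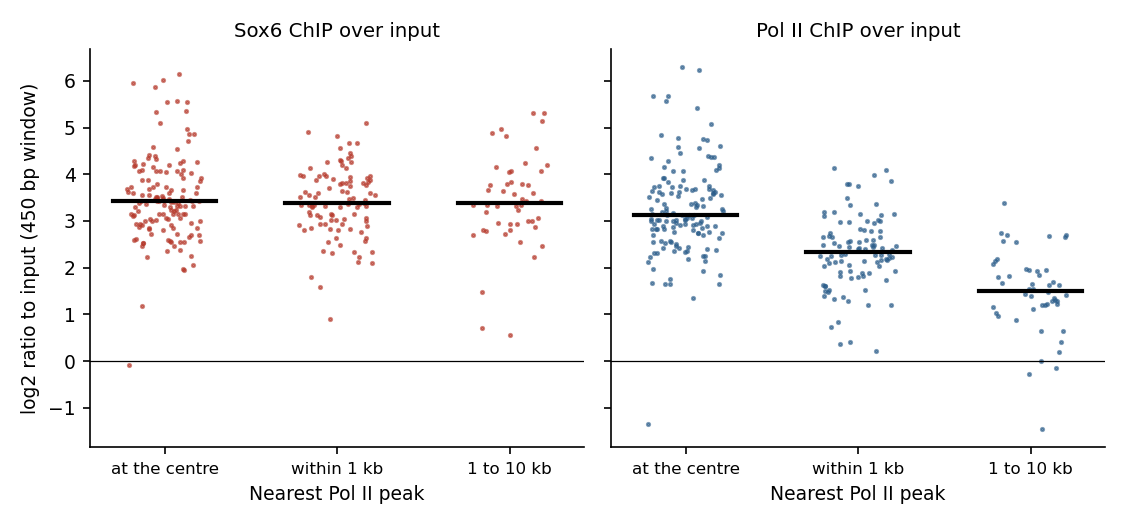
log2 ratio of Sox6 ChIP (left) and Pol II ChIP (right) to input in the 450 bp window (y axis) for each of the 292 regions, by the place of the nearest Pol II peak (x axis), with the median as a bar. The medians for Sox6 lie between 3.38 and 3.42, those for Pol II go from 3.12 to 1.51, and the point at -1.34 for Pol II in the first class is the region in Cdk5rap2.

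Some regions were near a Pol II peak of 1 replicate only. Since the lack of a peak in the other replicate also defines these sets and the farther peaks, their values there are descriptions that depend on the peaks of both. For 74 regions a Pol II peak of replicate 2 alone was within 10 kb. In replicate 1, 69 of the 74 had more Pol II than Input DNA replicate 1, and the median log2 ratio was 2.25, beside 1.51 over the 259 farther intronic peaks, of which 187 (72.2%) were above input. For 13 regions a peak of replicate 1 alone was near. In replicate 2, 8 of the 13 were above Input DNA replicate 2, and the median log2 ratio was 0.99, beside 1.26 over the farther peaks, of which 188 (72.6%) were above input. Of these 13, 5 are in Sfi1 and Cdk5rap2, which had high input. Without those 5, a choice made after the values were seen, 7 of 8 were above input and the median was 1.58. The order of the medians thus turned, but only these regions were filtered. The farther peaks were all kept, and their input reached 5.53 RPM in Input DNA replicate 2. The part of the high input was not tested. Each of these values compares 1 library with 1 input and has no test.

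Over the whole host gene, Pol II was 2.23 and 2.31 RPKM at the median of the 241 host genes, against 0.700 and 0.717 in the inputs. It exceeded the input of the same number in 219 (90.9%) and 223 (92.5%) of them. In the 235 genes that hold the farther intronic peaks the medians were 0.688 and 0.695 RPKM against 0.598 and 0.598, and 125 (53.2%) and 122 (51.9%) genes exceeded input. Some genes hold peaks of both kinds. The nearest Pol II peak, which the selection used, lay inside the host gene for 279 of the 292 regions. The values over whole genes thus depend on the selection and are descriptions too.

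Genes of the sarcomere held 11 of the 292 regions, in 10 of the 78 genes on this list, and 3 of its genes held an intronic peak farther from Pol II. Over all 23274 genes, 241 held a region and 235 a farther intronic peak. The lists were chosen with earlier results of these data known, so nothing is read from such counts. A Pol II peak was within 1 kb of 10 of the 11, as of 242 of all 292. For 10 a start of the host gene had one within 1 kb, beside 186 of all 292. The median log2 ratio was 4.05 for Sox6 and 3.74 for Pol II, beside 3.42 and 2.65 over the 292.

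The region in Tnnc1, which encodes the troponin C of slow and cardiac muscle, had the highest Pol II ratio of all 292 and the third highest Sox6 ratio. It lies 1.08 kb from the start in intron 1 of 5 and is the first sequence shown. Sox6 was 13.7 and 28.6 RPM, Pol II 27.3 and 23.2 RPM, and input 0.182 and 0.495 RPM. Every ChIP library was above both inputs, with log2 ratios of 5.95 ± 0.45 for Sox6 and 6.29 ± 0.42 for Pol II (moderated SE, 2 libraries against 2).

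Tnni1, which encodes slow skeletal troponin I, held 2 regions in intron 2 of 6 of its longest model. The paper describes 2 Sox6 peaks upstream of this gene. By their distances of 0.738 and 4.41 kb from an annotated start, these 2 regions appear to be the same peaks. They are thus intronic in the longest model and upstream of another annotated start. The second in the sequences shown, 0.738 kb from the nearest annotated start of the gene, had 11.7 and 12.9 RPM of Sox6, 9.75 and 12.7 of Pol II, and 0.910 and 0.577 of input. The first, 4.41 kb away, had 4.02 and 6.81 RPM of Sox6, 6.5 and 6.52 of Pol II, and 0.319 and 0.412 of input. Their log2 ratios of Pol II were 3.93 ± 0.40 and 4.14 ± 0.48, and a Pol II peak covered the centre of the second and lay 20.5 bp from that of the first.

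The region of Tnnt1, the slow troponin T gene, has its centre 4.5 bp from an annotated start of the gene and in intron 1 of 13 of the longest model. Sox6 was 6.70 and 8.85 RPM, Pol II 5.20 and 3.62, and input 0.364 and 0.577. Its ratios were 4.05 ± 0.46 for Sox6 and 3.25 ± 0.50 for Pol II.

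Myl4, which encodes the myosin light chain of fetal muscle and the atria, held a region 217.5 bp from a start, with 9.04 and 19.7 RPM of Sox6, 11.7 and 13.8 of Pol II, and 0.865 and 1.03 of input. In Actn2, the gene of the Z-disc protein α-actinin-2, Pol II was 13.6 and 15.2 RPM and Sox6 6.70 and 12.3, against 0.455 and 0.619 in input. Neither interval has a Sox or E-box word, as the sequences show. The log2 ratios of Pol II were 3.74 ± 0.37 and 4.73 ± 0.39.

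Leiomodins start actin filaments and tropomodulins cap them. The Lmod2 region had 4.35 and 6.81 RPM of Sox6 and 11 and 14.8 of Pol II against 0.501 and 0.536 of input. The Lmod3 region had 6.70 and 4.77 RPM of Sox6 and 11 and 9.05 of Pol II against 0.683 and 0.948. Tmod1 had 4.35 and 5.45 RPM of Sox6 and, 0.980 kb from the nearest Pol II peak, 3.25 and 1.09 of Pol II against 0.410 and 0.289. All ChIP libraries were above both inputs at these 3 regions. The RPM of Sox6 and of Pol II come from different antibodies and do not rank the amounts of the proteins.

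The other 2 sarcomere regions had the lowest log2 ratios of Pol II in the group. In Tpm3, which encodes the slow isoform of tropomyosin, Sox6 was 17.4 and 23.2 RPM, Pol II 2.60 and 0.724, and input 0.319 and 0.742. In Myh6, the gene of α-cardiac myosin heavy chain, where the region lies in intron 34 of 38, Sox6 was 9.38 and 14.3 RPM, Pol II 2.60 and 0.724, and input 0.592 and 0.495. Pol II replicate 2 overlapped the inputs at Tpm3 and stood just above them at Myh6. The log2 ratios of Pol II were 1.67 ± 0.68 and 1.53 ± 0.66, and the nearest Pol II peak was 2.96 and 0.400 kb away. Myh6 is 1 of the host genes without a Pol II peak at any start.

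**Figure D4:**
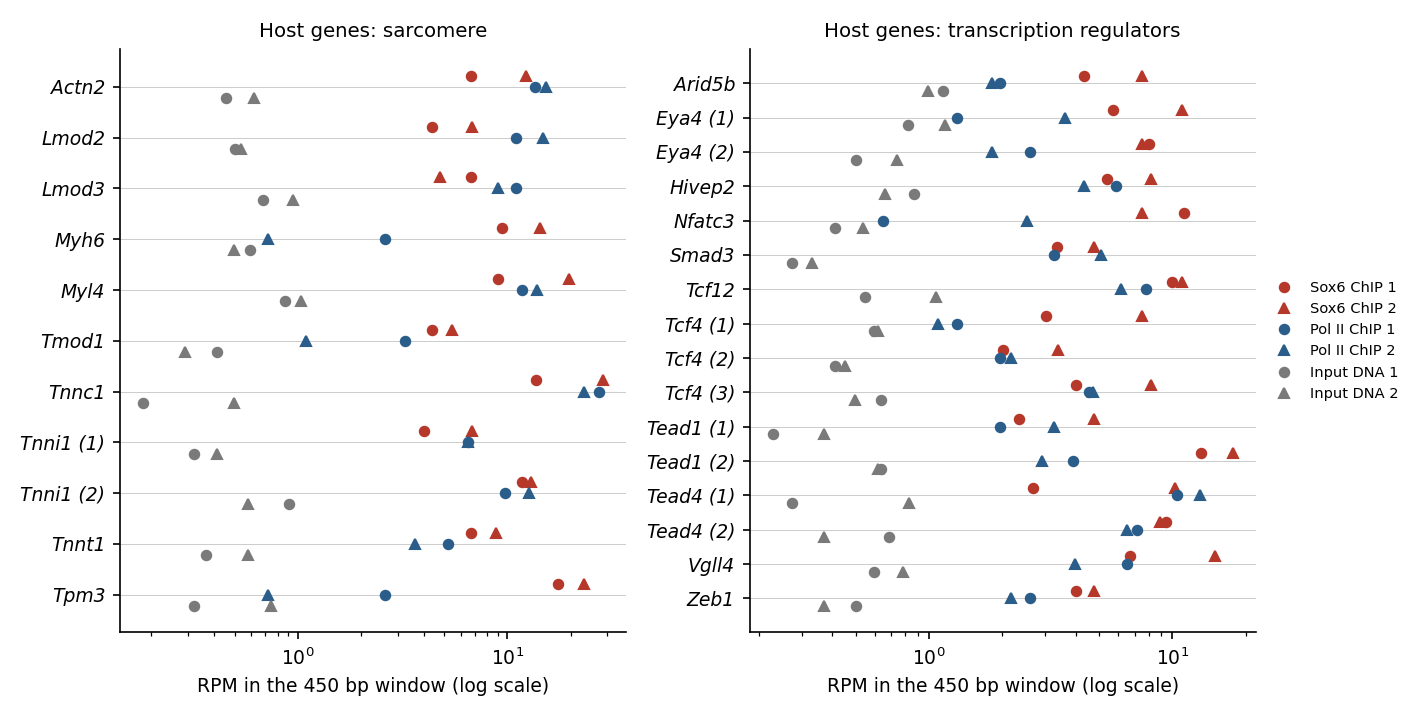
RPM in the 450 bp window (x axis, log scale) in each of the 6 libraries at the regions whose host gene (y axis) is a sarcomere gene (left) or a transcription regulator (right), with circles for replicate 1 and triangles for replicate 2. Numbers in brackets order the regions of 1 gene by position. Sox6 lies above both inputs at each of these regions, and Pol II meets the inputs at Tpm3.

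Transcription regulators were the second group. Of 98 genes listed, 11 held 16 regions, and 4 held farther intronic peaks, beside 241 and 235 of all 23274 genes. The median log2 ratios were 3.49 for Sox6 and 2.65 for Pol II, against 3.42 and 2.65 over the 292.

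The TEA domain factors Tead1 and Tead4, which bind the MCAT element of muscle genes, held 2 regions each. In Tead4, both regions lay inside Pol II peaks, and their Sox6 was 2.68 and 10.2 RPM at one and 9.38 and 8.85 at the other. Pol II was 10.4 and 13.0 RPM at the first and 7.15 and 6.52 at the second, against inputs from 0.273 to 0.825. In Tead1, where no start has a Pol II peak within 1 kb, Sox6 was 2.35 and 4.77 RPM at one region and 13.1 and 17.7 at the other, and Pol II was 1.95 and 3.26 and then 3.90 and 2.90. In Tead4 the region with more Pol II in both libraries had less Sox6 in replicate 1 and more in replicate 2. Vgll4, which encodes a cofactor of TEAD proteins, had 6.70 and 15.0 RPM of Sox6 and 6.5 and 3.98 of Pol II, against 0.592 and 0.784 of input.

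Tcf12 and Tcf4 encode E proteins, the partners of MyoD on E-boxes. The Tcf12 region holds 3 E-box words and had 10 and 10.9 RPM of Sox6, 7.80 and 6.16 of Pol II, and 0.546 and 1.07 of input. In Tcf4, on chromosome 18, the 3 regions had log2 ratios of Sox6 from 2.66 to 3.36 and of Pol II from 1.20 to 3.06, and no E-box word. The gene of Zeb1, a zinc finger repressor that binds E-boxes, had 4.02 and 4.77 RPM of Sox6 and 2.60 and 2.17 of Pol II, against 0.501 and 0.371.

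Nfatc3, which encodes a calcineurin-dependent factor, had 11.1 and 7.49 RPM of Sox6, 0.650 and 2.53 of Pol II, and 0.410 and 0.536 of input, 79.5 bp from a Pol II peak. Eya4, the gene of a transcription coactivator, held 2 regions with 5.69 and 10.9, and 8.04 and 7.49 RPM of Sox6. Their Pol II was 1.30 and 3.62, and 2.60 and 1.81 RPM, next to inputs from 0.501 to 1.16. In these genes Pol II replicates stood at between 1 and 10 reads a window, so their ratios (1.73 ± 0.67, 1.32 ± 0.50 and 1.93 ± 0.55) are imprecise. Smad3, Hivep2 and Arid5b completed the group, with Pol II ratios of 3.75 ± 0.56, 2.77 ± 0.44 and 0.97 ± 0.49.

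Cytoskeleton and adhesion genes held the most regions of any list, 19 in 15 of 84 annotated genes, beside 241 of all 23274 genes. Of these 19 regions 12 lay inside a Pol II peak, beside 144 of all 292. The median log2 ratios of the 19 were 3.52 for Sox6 and 3.09 for Pol II, beside 3.42 and 2.65 over the 292. The lowest for Pol II was 1.29 ± 0.60 in Dst (dystonin). Bicd2, which encodes a dynein adaptor, had the highest Sox6 ratio of all 292 regions. Its Sox6 was 29.8 and 33.4 RPM, its Pol II 7.80 and 6.88, and its input 0.865 and 0.206, and its interval holds 2 Sox words and 4 Runx words but no E-box. Ncam1, the gene of the neural cell adhesion molecule, had 5.86 as its Sox6 log2 ratio, from 31.5 and 37.5 RPM of Sox6, 7.15 and 3.26 of Pol II, and 0.501 and 0.660 of input.

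Macf1, which encodes a crosslinker of microtubules and actin, held 3 regions within 7900 bp of its first intron. Sox6 was 8.71 and 7.49, 10 and 15.7, and 3.35 and 4.09 RPM at these in order of position, and Pol II was 8.45 and 7.96, 7.80 and 4.34, and 3.90 and 2.90. Mtss1, which encodes a membrane-bending protein, held 3 in its first intron, all inside Pol II peaks, with log2 ratios of Sox6 from 2.99 to 4.03 and of Pol II from 2.54 to 3.46. Further genes of the group, Ablim1, Cap2, Enah, Fermt2, Fhl2, Filip1, Itga6, Myo1d and Syne1, had log2 ratios of Pol II between 1.66 (Ablim1) and 4.14 (Cap2).

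The other lists held few regions. Of 56 genes of metabolism and growth signalling, Rptor, which encodes a subunit of mTORC1, held 3 and Notch1 held 1, with log2 ratios of Pol II from 2.10 to 3.87. Of 53 genes of calcium handling, Itpr1, an inositol trisphosphate receptor gene, held 1, with 4.69 and 2.04 RPM of Sox6 and 1.95 and 2.17 of Pol II against 0.865 and 0.247. None of 23 annotated genes of myoblast fusion held any, nor an intronic peak farther from Pol II. With 241 host genes among all 23274, nothing is read from an absence in so short a list.

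Outside the lists, the highest Sox6 ratios were found in Psmg2 (6.01), which encodes a proteasome assembly chaperone, Tspan14 (5.57), a tetraspanin gene, Rbfox2 (5.54), a splicing regulator gene, 2310022B05Rik (5.54) and Tmem200a (5.34). Of the 10 highest Sox6 ratios, 9 were at regions inside a Pol II peak, Tpm3 being the other one, and each of the 10 intervals holds a Sox word, while 49.3% of the 292 lie inside a Pol II peak and 49.3% hold a Sox word. The highest Pol II ratios were another set, which shared only Tnnc1 with the first. After Tnnc1 came D230017M19Rik (6.24), Iffo1 (5.68), Sept9 (5.68), which encodes a septin, 2 regions of Tex14 (5.57 and 5.41), Slc44a3 (5.07), Mid1 (4.84), Arl6ip5 (4.77) and Ccdc23 (4.76). Iffo1, an intermediate filament family gene, had 30.5 and 30.8 RPM of Pol II, 12.1 and 10.9 of Sox6 and 0.410 and 0.825 of input, and 5 E-box words without a Sox word. Tex14 had 39.0 and 34.0 RPM of Pol II at one region and 30.5 and 36.9 at the other, with 3.35 and 3.4, and 6.03 and 9.53 RPM of Sox6.

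Most host genes held a single region, 204 of 241, while 24 held 2, 12 held 3 and 1 held 4. Besides Macf1, Mtss1, Rptor and Tcf4, those with 3 were Atg7, Ccdc141, Ddc, Frem2, Fyn, Megf10, Slc25a26 and Sorcs2. In Ccdc141, 3 regions stood within 4060 bp, all inside Pol II peaks, with 11 and 5.43, 13.6 and 6.16, and 1.30 and 6.52 RPM of Pol II. Those of Ddc (dopa decarboxylase), Fyn (a Src family kinase), Megf10 (a receptor of muscle satellite cells) and Sorcs2 (a sorting receptor) were likewise all inside Pol II peaks. In Atg7, which encodes an enzyme of autophagy, the 3 regions were 1.83, 4.47 and 6.19 kb from a Pol II peak, with log2 ratios of Pol II from 0.88 to 1.22. Frem2, an extracellular matrix gene, and Slc25a26, a mitochondrial carrier gene, had no Pol II peak at a start, nor had Sorcs2.

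Sfi1, which encodes a centrin-binding protein, was the gene with 4 regions, and these were among those with the highest input. Input over them ranged from 0.910 to 5.86 RPM, beside a median of 0.501 and 0.577 over all 292. Their Sox6 ratios were 0.91, 0.70, 1.58 and 1.48 in order of position and their Pol II ratios 0.83, 0.20, 0.21 and -0.27. The 2 regions called below input for Pol II, chosen after their values were seen, also had high input. These were Cdk5rap2, with 53.2 and 51.6 RPM of input, 55.6 and 43.6 of Sox6, 22.7 and 18 of Pol II, and Litaf, with 5.33 and 8.74 RPM of input, 9.38 and 10.2 of Sox6 and 1.30 and 3.62 of Pol II. With repeated read positions counted once, neither was called below input, and the log2 ratios at Cdk5rap2 turned from -0.08 to 1.91 for Sox6 and from -1.34 to 1.16 for Pol II. The part of the high input in these ratios was not tested.

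The 4 motifs were searched as words on both strands of the deposited intervals, which the division by Pol II does not use. A Sox word was found in 144 of 292 regions (49.3%, exact 95% binomial interval 43.4 to 55.2%), against 140 of 259 farther intronic peaks (54.1%, 47.8 to 60.2%) and 52.0% of all common peaks. Intervals of the same length 2 kb to either side of the 292 regions held one in 21.7% of cases. The odds ratio of near to far was 0.827 (95% interval 0.583 to 1.17, two-sided Fisher's exact test, p = 0.27, 0.37 adjusted over the 4 motifs).

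E-box words were more frequent near Pol II. They were in 186 of 292 regions (63.7%, 57.9 to 69.2%), in 128 of 259 farther intronic peaks (49.4%, 43.2 to 55.7%) and in 55.5% of all common peaks. The odds ratio was 1.79 (1.26 to 2.56, two-sided Fisher's exact test, p = 0.00078, adjusted 0.0031). The flanking intervals differed in the same direction, with 22.8% beside the 292 regions and 16.2% beside the farther peaks, and the regions were also wider (160 against 140 bp at the median) and richer in GC. In equal windows of 200 bp around the centre the shares were 70.2% and 63.7% and the difference did not pass (odds ratio 1.34, 0.925 to 1.95, Fisher's exact test, adjusted p = 0.12). In the same windows Sox words were in 54.1% and 64.5% (odds ratio 0.65, 0.454 to 0.929, Fisher's exact test, p = 0.015, adjusted 0.061) and Tead or MCAT words had an odds ratio of 0.673 (0.459 to 0.985, p = 0.041, adjusted 0.082), neither past the threshold after adjustment. With a Pol II peak of each replicate required within 10 kb, the E-box difference did not pass either (61.0% of 205 against 54.6% of 346, odds ratio 1.30, adjusted p = 0.31 by Fisher's exact test). Those 346 are all other intronic peaks. They include the 74 regions near a peak of replicate 2 alone and the 13 near a peak of replicate 1 alone. The main comparison counts these as near Pol II, so this setting also changes the comparison group. By distance class the share with an E-box was 63.9% inside a Pol II peak, 66.3% within 1 kb and 58.0% between 1 and 10 kb.

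The Runx word CCACA was in 60.3% of the regions and 60.6% of the farther peaks, with 40.6% in flanks (odds ratio 0.986, 0.690 to 1.41, Fisher's exact test, adjusted p = 1). GGAATG, the Tead or MCAT word, was in 22.9% and 27%, with 8.90% in flanks (odds ratio 0.804, 0.536 to 1.21, Fisher's exact test, adjusted p = 0.37). Matches of CCACA overlap a Sox word in 13 regions and an E-box word in 23. Regions of 1 gene and overlapping matches are not independent, and intervals cover counting error only.

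**Figure D5:**
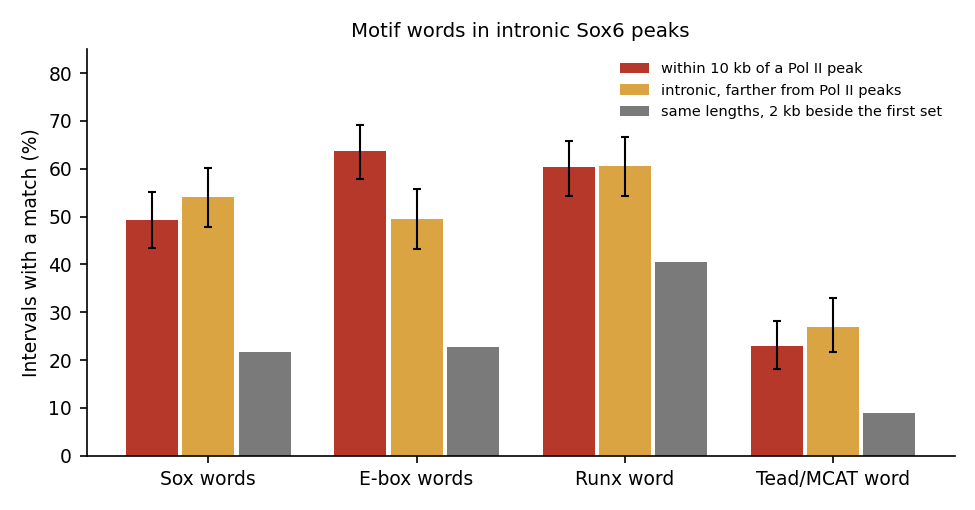
Share of intervals with at least 1 match (y axis, %) for each motif (x axis) in the 292 intronic Sox6 peaks within 10 kb of a Pol II peak, in the 259 farther ones, and in 584 intervals of the same lengths 2 kb to either side of the first set, with exact 95% binomial intervals on the first and second. E-box words are in 63.7% and 49.4% of the peaks, while the intervals of the others overlap between both sets of peaks.

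Both a Sox and an E-box word were in 97 of the 292 regions (33.2%), a Sox word alone in 47, an E-box alone in 89 and neither in 59. More than 1 Sox word was found in 40 regions and more than 1 E-box in 71. Beside the 63.7% with an E-box and 49.3% with a Sox word over the 292, 16 of the 19 cytoskeleton regions held an E-box and 9 a Sox word, 7 and 8 of the 11 sarcomere regions did, and 8 and 9 of the 16 regulator regions. Differences between these groups were not tested.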

How the data were processed

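Sox6 and Pol II ChIP and input were sequenced from cross-linked myotubes (disuccinimidyl glutarate, then formaldehyde). The authors aligned the reads with Bowtie 0.12.5 (per the submitters' processing notes) to NCBI Build 37 (mm9), kept uniquely mapped reads, and found peaks with SISSRs using each experiment's input as background. The deposited files hold positions of reads and of peaks, with no counts or normalization. The deposited score column of the Pol II peaks was not used. Reads were 39 bases long, and 36 in Input DNA replicate 1. Depth is given with the samples.

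Gene models were the GENCODE annotation of Build 37, limited to 23274 genes with a RefSeq transcript by name. Where 2 annotated genes shared a name, the shorter one gave the distances. Each read was assigned to its 5′ position, summed over 450 bp around each of the 1066 centres, divided by all mapped reads, and log2 values with 0.5 reads added were fitted with limma 3.58.1 (trend) in R 4.3.3, Sox6 and Pol II separately, adjusted by Benjamini-Hochberg. The fit was also run on simulated counts in which most windows had no change, whereas Sox6 was called above input at most windows here. That run therefore cannot check the calls in these data. In low windows the 0.5 reads raise the ratio of the shallower ChIP libraries. Motif shares were compared by Fisher's exact test (scipy 1.17.1). Python 3.11.15, pysam 0.24.0 and matplotlib 3.10.9 were used.

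Named regions were those in a host gene of 6 lists, the 10 highest by Sox6 and by Pol II ratio, hosts of 3 or more, and those nearest the limit. Cdk5rap2 and Litaf are outside this rule and were named after their values were seen. The regions, the lists and this rule were chosen with earlier results of these data known. Libraries of a group are not stated to come from separate animals, so errors may be technical. The values of 1 host gene are not reported here. Alternatives were other windows, scalings, pseudocounts, filters, limits, gene models, a replicate block and each library left out.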

Additional observations from a re-analysis of the deposited data

How the results depend on the processing

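At the 10 kb limit and with all libraries, the count of regions called for Pol II ranged from 219 (0.1 RPM added) to 272 (scaled to reads outside peaks), beside the reported 254. For Sox6 it ranged from 286 to 292, beside 289. The share of all common peaks under each alternative is not given here, so nothing is read from these counts. With any 1 library left out, fewer regions than 254 were called for Pol II, and the loss was largest without an input library. With the replicate number as a block (replicate block) the count was 287 for Sox6 and 250 for Pol II. Deviations of same-numbered libraries had r of -0.024 for Sox6 and input and -0.027 for Pol II and input, over 1066 peaks. With few reads per window this cannot tell whether they share a culture. The main fit took no pairs, and the replicate block is the alternative. The median log2 ratio moved by more than the spread of the replicates, 0.19 for Sox6 and 0.09 for Pol II, in the following cases. For Sox6 it was 2.76 in 1000 bp, 3.72 in the deposited interval and 3.17 with 0.1 RPM added, and it ranged from 3.24 to 3.63 with a library left out, of which 3.63 (without Sox6 ChIP replicate 1) was past that spread. For Pol II the first 3 of these were 2.44, 2.78 and 2.35, and it was 2.91 when scaled to reads outside peaks, 2.49 with a limit of 20 kb and 2.96 with a Pol II peak of each replicate. With a library left out the median for Pol II was 2.60 to 2.70, which is within that spread. The number of regions was 273 with a limit of 5 kb, 330 with 20 kb and 205 with a peak of each replicate. For the E-box the odds ratio was 1.34 in 200 bp around the centre and 1.30 with a peak of each replicate, neither past the threshold, and between 1.58 and 1.84 under the other alternatives. With a peak of each replicate required, regions near a peak of 1 replicate only were counted with the farther peaks. The cause of the lower odds ratios was not tested. The other motifs kept their direction and passed under none after adjustment, with odds ratios in 200 bp of 0.65 for Sox, 0.673 for Tead or MCAT and 0.712 for Runx. Among 97 named regions those of Sfi1 and Cdk5rap2 changed sign. With repeated positions counted once, Cdk5rap2 had 1.91 for Sox6 and 1.16 for Pol II, and its Sox6 ratio ranged from -0.26 to 0.09 with a library left out. In Sfi1, with a library left out, for Sox6 the region at 3032822 ranged from -0.07 (without Sox6 ChIP replicate 2) to 1.88, and for Pol II those at 3036562 from -0.17 to 0.57, 3040722 from -0.74 to 1.17 and 3049722 from -1.12 to 0.58. Up to 19 named regions lost their call for Pol II when 1 input was left out. With 5 and 9 Pol II reads in the median window, ratios of single regions are imprecise.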
